A study of Rattus norvegicus with 8 samples.

Results

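Microtubule-associated proteins bind tubulin polymers in axons and dendrites, and 10 of their genes were followed here in the somatic and the process compartment of cultured rat hippocampal neurons. The genes were taken by symbol from the table of read counts, and all 10 of them were found among its 28909 symbols. They are Map1a, Map1b, Map1s, Map2, Map4, Map6, Mapt, Dcx, Stmn1 and Stmn2. Every one of the 10 was among the 14309 genes with enough reads to be tested, with at least 160 reads in each library. Primary neurons of embryonic Sprague-Dawley rats were grown on porous filter inserts, with somata on the upper side and processes that had grown through the pores on the lower side. From day 18 to day 20 in vitro the medium held either picrotoxin (PTX), an antagonist of the GABA-A receptor, for 48 h, or the vehicle ethanol. Total RNA of each side was depleted of ribosomal RNA and sequenced, which gave 4 conditions (somata control, somata PTX, processes control and processes PTX) with 2 libraries each. The design asks whether prolonged PTX acts differently on the transcripts of the 2 compartments, and the labels do not say whether the 2 libraries of a condition came from separate cultures, so that p-values measure only the spread between these libraries.

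Microtubules are built from tubulin and carry transport between the cell body and the distal parts of a neuron. Structural microtubule-associated proteins stabilise and bundle them, and several are sorted within the neuron, with MAP2 a classical marker of dendrites and tau (Mapt) concentrated in axons. Doublecortin (Dcx) and MAP1B are known from migrating and growing neurons, whereas proteins of the stathmin family bind free tubulin and promote disassembly. The mRNA of Map2 is a textbook example of a dendritically localised transcript.

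Levels are given in CPM, the read counts relative to a library size scaled by the trimmed mean of M-values (TMM), differences are given as log2 fold changes with their standard errors (SE), and no level is compared between genes because transcript lengths were not used here. The libraries held 12290890 to 18455662 counts. Genes of the mitochondrial genome took 22.6% to 26.7% of the counts in somata and 68.5% to 72.5% in processes, so that the other genes shared 9517542 to 11227599 counts in somata and 4702054 to 5491237 in processes. Neuronal markers were detected for 9 of 9 genes, and their summed level was 1386 to 1619 CPM in somata control and 859.5 to 1099 CPM in processes control. Astrocyte markers were detected for 8 of 8 genes, and their summed level was 4092 and 4482 CPM in somata control against 14940 and 13330 CPM in processes control, most of it Gfap at 11110 and 9382 CPM in the processes. Microglial markers summed to at most 2.12 CPM in any library, and Cx3cr1, Tmem119 and C1qa were at 0 in processes control. Both compartments thus held astrocyte transcripts beside neuronal ones. In bulk RNA, fewer cells of a type and less RNA per cell cannot be told apart.

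Compartment separated the 10 genes into 2 patterns. In control cultures, Map1a, Map2 and Map4 were more than 4 times higher in processes than in somata, and Map1s was higher by a smaller amount that turned with library size scaling, whereas the other 6 genes did not pass. In edgeR's quasi-likelihood test, with the Benjamini-Hochberg adjustment over all 14309 genes and a threshold of 0.05, 4 of the 10 genes were higher in processes and 0 were lower, where 25.8% of all tested genes were higher and 21.9% were lower. At an unadjusted p under 0.05, 5 of the 10 genes were higher and 0 were lower, where 28.4% of all tested genes were higher and 26.2% were lower. With other scalings Stmn1 passed as lower, as given below. A log2 fold change above 1 was reached by 3 of the 10 genes, against 11.6% of all tested genes. In PTX cultures 4 of the 10 genes were higher in processes and 0 lower, with Map1a, Map2 and Map4 called in both kinds of culture, Map1s in control cultures and Dcx in PTX cultures, and with 25.7% and 24% of all genes called in those directions, and 3 genes exceeded a log2 fold change of 1, against 11.4% of all genes. The median log2 fold change of the 10 genes was 0.51 in control cultures and 0.31 in PTX cultures, where the median of all tested genes was -0.05 in both.

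No PTX difference of the 10 genes reached 1 on the log2 scale, and 9 of the 10 had a lower mean level after PTX in both compartments, with Map4 the exception in both. Of all tested genes, 48.9% had a positive PTX log2 fold change in somata and 48.4% in processes. In somata, Stmn1 was the only one of the 10 to pass the test and was lower after PTX, so that 0 genes were higher and 1 was lower, where 2.09% of all genes were higher and 1.5% were lower. In processes, Map1a alone passed and was lower, so that 0 genes were higher and 1 was lower, where 1.64% of all genes were higher and 2.1% were lower. At an unadjusted p under 0.05 stood 5 of the 10 genes in somata and 6 in processes, against 15.6% and 16.6% of all genes. DESeq2 called 3 of the 10 in somata and 2 in processes, against 3.52% and 4.47% of all genes. The median log2 fold change of the 10 genes was -0.29 in somata and -0.35 in processes, against -0.01 for all tested genes in both compartments.

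Libraries with the same replicate number deviated together across genes, and the same test with that number as a block called more of the 10 genes. With the block, 1 of the 10 genes was higher and 5 were lower after PTX in somata, where 7.21% of all genes were higher and 6.79% were lower. In processes 1 was higher and 7 were lower, where 5.1% of all genes were higher and 6.09% were lower. For processes against somata the block gave 8 genes higher and 0 lower in control cultures, with 29.8% and 28% of all genes called in those directions, and 7 genes higher and 0 lower in PTX cultures, with 30% and 29.6% of all genes called. The adjusted p with the block is given below for each gene whose call it changed.

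**Figure D1:**
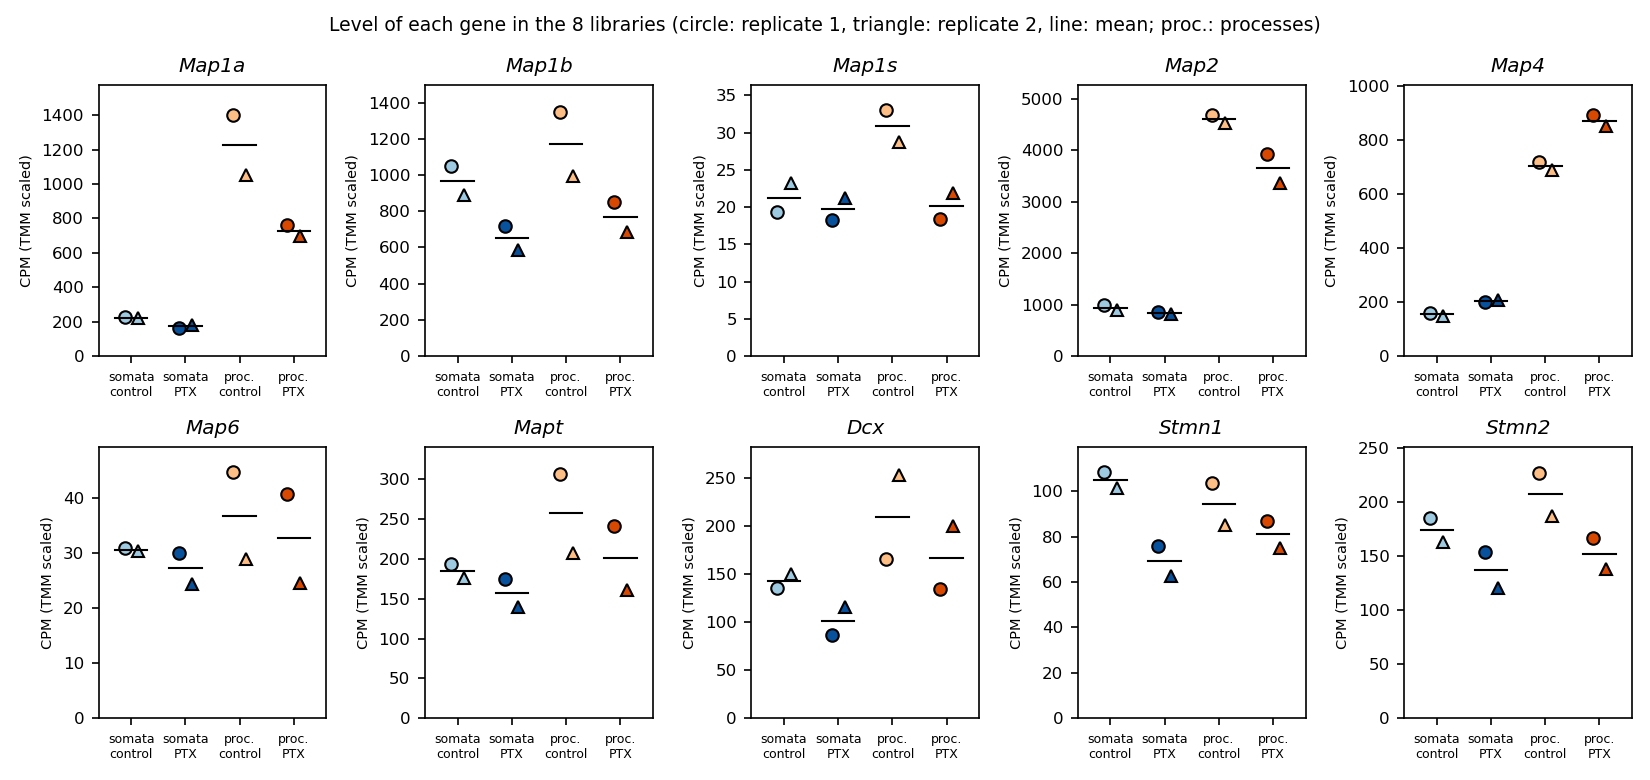
Level of each of the 10 genes in CPM after TMM scaling (linear axis from 0, 1 panel per gene) in the 4 conditions, with a circle for replicate 1, a triangle for replicate 2 and a line at their mean. The process libraries of Map1a, Map2 and Map4 lie far above the somata libraries of the same genes, and Map4 is the gene whose PTX libraries lie above the control libraries in both compartments.

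Promoter sequence is shown for Map1a and Stmn1, the 2 genes that passed the PTX test without the block. The sequences are the 250 bases before the RefSeq start site in GRCr8, which is newer than the assembly of the counts, and a RefSeq promoter was found for 6 of the 10 genes (Map1a, Map1b, Map1s, Map2, Dcx and Stmn1). Both are on the plus strand, at chr3:128722445-128722694 for Map1a and at chr5:151964929-151965178 for Stmn1, and these start sites lie 5788 bases and 871 bases inside the annotated gene edge. Capitals mark CRE cores (TGACG or CGTCA), E-boxes (CACGTG) and GC boxes (GGGCGG or CCGCCC), searched on both strands.
Map1a: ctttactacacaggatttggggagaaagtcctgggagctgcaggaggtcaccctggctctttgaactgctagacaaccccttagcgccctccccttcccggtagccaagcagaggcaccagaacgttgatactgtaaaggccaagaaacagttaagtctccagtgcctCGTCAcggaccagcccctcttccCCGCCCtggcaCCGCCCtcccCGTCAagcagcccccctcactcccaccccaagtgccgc
Stmn1: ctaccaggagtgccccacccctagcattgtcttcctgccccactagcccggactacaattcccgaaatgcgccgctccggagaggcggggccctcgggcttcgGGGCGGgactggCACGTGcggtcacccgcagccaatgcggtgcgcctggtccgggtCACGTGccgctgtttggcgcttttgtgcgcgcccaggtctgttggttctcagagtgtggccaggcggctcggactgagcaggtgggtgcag
The Map1a window held 2 CRE cores and 2 GC boxes, and the Stmn1 window held 2 E-boxes and 1 GC box. Among all 33469 promoter windows of this length, 18.2% held at least 1 CRE core, 5.6% at least 1 E-box and 30.5% at least 1 GC box. The shares with 2 or more were 3.98% for the CRE core, 0.43% for the E-box and 14.76% for the GC box. The full CRE palindrome (TGACGTCA), which contains the core, was in neither window and in 1.6% of all windows. None of these 4 motifs was found in the windows of Map1b, Map1s, Map2 and Dcx, of which those of Map2 and Dcx lie at start sites 173652 and 66130 bases inside the annotated gene edge. The GC content was 60.4% for Map1a and 67.6% for Stmn1, against a median of 51.2% over all windows. These matches describe the letters only, and binding at them was not measured.

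Map2 encodes the main dendritic microtubule-associated protein. Its level was 985 and 887 CPM in the somata control libraries and 861 and 812 CPM in the somata PTX libraries. In processes it was 4693 and 4524 CPM in control and 3935 and 3369 CPM after PTX. Each process library was thus several times above each somata library, and within each compartment both PTX libraries were below both control libraries. In control cultures the level was 4.92 times higher in processes than in somata, a log2 fold change of 2.30 (SE 0.142, adjusted p = 1.04e-06, quasi-likelihood test). In PTX cultures the log2 fold change was 2.13 (SE 0.141, adjusted p = 1.31e-06). In control cultures 98.8% of the tested genes had a smaller process to somata ratio than Map2. The PTX difference was smaller, at a log2 fold change of -0.34 in processes (SE 0.136, adjusted p = 0.24, and 0.0308 with the block) and -0.16 in somata (SE 0.136, adjusted p = 0.669).

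Map1a encodes a protein of mature dendrites and axons that binds along microtubules. It was measured at 225 and 219.5 CPM in somata control and at 165 and 183 CPM in somata PTX. The process libraries held 1400 and 1055 CPM in control and 762 and 697 CPM after PTX. The control and PTX libraries did not overlap in either compartment, and the gap was wider in processes. Map1a in processes was lower after PTX by a log2 fold change of -0.75 (SE 0.147, 95% confidence interval -1.07 to -0.43, adjusted p = 0.0211, quasi-likelihood test), a level 1.68 times lower. The size depended most on the control libraries, with a log2 fold change of -0.53 (adjusted p = 0.127) without replicate 1 and of -0.94 (adjusted p = 0.0118) without replicate 2 of processes control. Without replicate 1 or 2 of processes PTX the log2 fold change was -0.82 and -0.69, but the adjusted p was 0.0854 and 0.128. With the 4 process libraries fitted alone it was -0.73 with an adjusted p of 0.0658, whereas DESeq2 gave -0.74 with an adjusted p of 5.60e-05. In somata the log2 fold change was -0.35 (SE 0.147, adjusted p = 0.266, and 0.035 with the block). Between compartments Map1a had the largest difference of the 10 genes in control cultures, a log2 fold change of 2.46 (SE 0.154, adjusted p = 1.08e-06), and 2.07 in PTX cultures (SE 0.152, adjusted p = 2.35e-06).

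Map4 encodes a microtubule-associated protein that is found in many tissues, glia included, and it was the gene of the 10 with higher levels after PTX. Its level was 160 and 148 CPM in somata control and 199 and 208 CPM in somata PTX. In processes it was 719 and 687 CPM in control and 893 and 850.2 CPM after PTX. Both PTX libraries were above both control libraries in each compartment. The log2 fold change was 0.40 in somata (SE 0.113, 95% confidence interval 0.15 to 0.65, adjusted p = 0.0845) and 0.31 in processes (SE 0.112, 95% confidence interval 0.06 to 0.56, adjusted p = 0.183), and neither passed the quasi-likelihood test. With the block both passed, with an adjusted p of 0.00419 and 0.0314, and in somata the likelihood ratio test (0.0361) and DESeq2 (0.0232) called it too. Between compartments Map4 had a log2 fold change of 2.19 in control cultures (SE 0.117, adjusted p = 6.73e-07) and of 2.10 in PTX cultures (SE 0.117, adjusted p = 6.87e-07).

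The compartment differences depend on the scaling, since total RNA per compartment was not measured and the mitochondrial share differed between compartments. Scaled by library size only, the median of all tested genes in control cultures moved to -1.86, and it was -0.25 with upper quartile scaling and -0.51 with the counts outside the mitochondrial genes. Map1a (0.65), Map2 (0.49) and Map4 (0.38) kept a positive log2 fold change that passed the test in control cultures even with library size only. In PTX cultures with that scaling, Map2 (0.30) and Map4 (0.27) passed, and Map1a (0.24, adjusted p = 0.0829) did not. In all, library size only gave 3 genes higher and 7 lower in processes of control cultures and 2 higher and 7 lower in PTX cultures, in place of 4 and 0 with TMM. With that scaling 94.1% and 94.3% of all tested genes were called, so that the number of the 10 genes called in either direction is near the share of all genes. By direction, 1.35% and 1.27% of all genes were higher in processes, and 92.7% and 93% were lower. With the counts outside mitochondrial genes, 3 were higher and 1 was lower in each kind of culture, where 13.5% of all genes were higher and 49.3% lower in control cultures and 13.7% and 49.6% in PTX cultures. Relative to the median of all tested genes, the control difference was 2.51 for Map1a, 2.35 for Map2 and 2.24 for Map4 with TMM. The corresponding distances with library size only were 2.50, 2.35 and 2.24. A change of scaling shifts all genes by nearly the same amount, so these distances could hardly change and are not separate support. For the other 7 genes the sign of the compartment difference in control cultures was negative with library size only, so that higher or lower in processes is for them a statement relative to the typical tested gene. Of the 8 astrocyte markers 4 were higher and 2 were lower in processes of control cultures, with Gfap at 1588 and 1781 CPM in somata control against the process values above, and Slc1a3 at 861 and 972 CPM in somata control against 603 and 643 CPM in processes control. Of the 9 neuronal markers 1 was higher and 6 were lower. The part of glial RNA in the levels of Map1a, Map2 and Map4 was not tested.

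**Figure D2:**
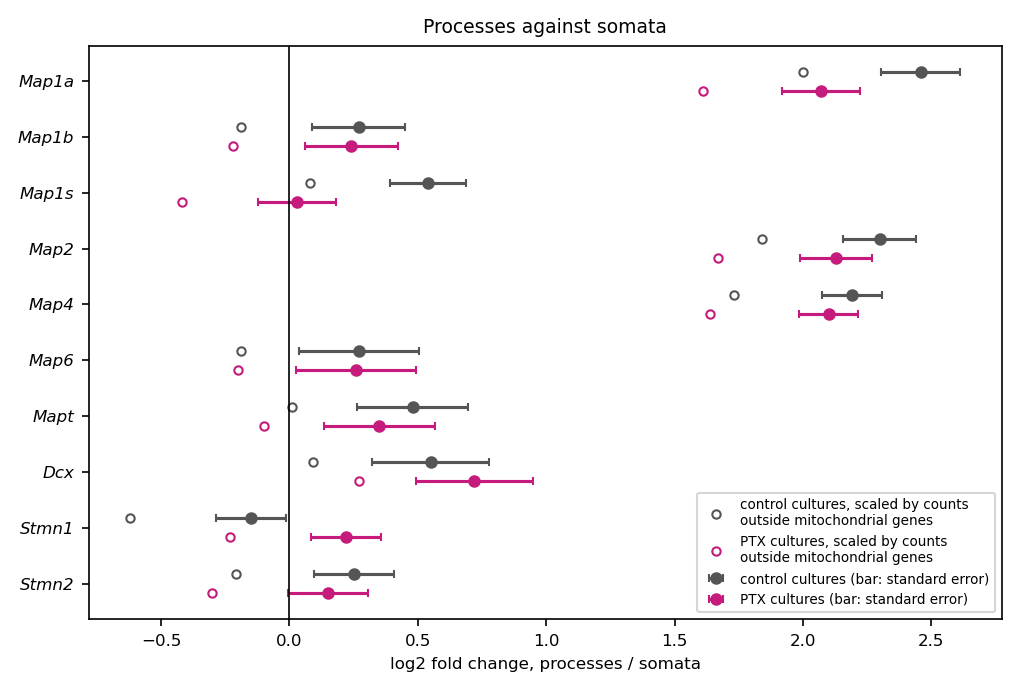
Log2 fold change of processes against somata for the 10 genes in control cultures (grey) and PTX cultures (magenta), with filled points from the TMM fit, bars of 1 standard error (SE) and open points from scaling by the counts outside mitochondrial genes. Map1a, Map2 and Map4 lie near or above 2 in the TMM fit and at 1.61 or more with the other scaling, while the remaining 7 genes lie between -0.15 and 0.72 in the TMM fit and move to both sides of 0 with the other scaling.

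Map1b encodes a protein of growing axons and is the relative of Map1a that is known for its early expression. Its level was 1048 and 892 CPM in somata control and 718 and 584 CPM in somata PTX. The process values were 1351 and 996 CPM in control and 851 and 684 CPM after PTX. Control and PTX libraries did not overlap in either compartment, while the somata and process libraries of control cultures did. The PTX log2 fold change was -0.57 in somata (SE 0.181, adjusted p = 0.129) and -0.61 in processes (SE 0.182, adjusted p = 0.103), so that the quasi-likelihood test called neither. The other 3 tests called both, with adjusted p of 0.0478 and 0.0314 in the likelihood ratio test, 0.0266 and 0.0142 in DESeq2, and 1.44e-04 and 1.22e-04 with the block. Processes against somata gave 0.27 in control cultures (SE 0.181, adjusted p = 0.233, and 0.0225 with the block) and 0.24 in PTX cultures (adjusted p = 0.298, and 0.0384 with the block), but -1.54 and -1.60 with library size only and -0.19 and -0.22 with the counts outside mitochondrial genes.

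Map1s encodes the short member of the MAP1 family. It was measured at 19.3 and 23.2 CPM in somata control and at 18.2 and 21.2 CPM in somata PTX, and these libraries overlapped. In processes it was at 33.0 and 28.8 CPM in control and at 18.4 and 21.9 CPM after PTX, with no overlap. The log2 fold change of PTX was -0.61 in processes (SE 0.156, 95% confidence interval -0.96 to -0.27, adjusted p = 0.0596, and 0.00249 with the block) and -0.11 in somata (95% confidence interval -0.42 to 0.21, adjusted p = 0.815). DESeq2 gave an adjusted p of 0.0518 in processes and the likelihood ratio test 0.0121. Processes against somata in control cultures gave 0.54 (SE 0.148, adjusted p = 0.0119), but the call was lost with upper quartile scaling (0.34, adjusted p = 0.0736), with the counts outside mitochondrial genes (0.08), without replicate 1 of somata control (0.42, adjusted p = 0.0972) and without replicate 1 of processes control (0.44, adjusted p = 0.086), and the sign turned with library size only (-1.27). In PTX cultures the difference was 0.03 (SE 0.152, adjusted p = 0.864) and was -1.78 with library size only.

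Mapt encodes tau, the axonal microtubule-associated protein. Its level was 193 and 177 CPM in somata control and 175 and 139 CPM in somata PTX, with little space between the groups. The process libraries held 307 and 207 CPM in control and 242 and 161 CPM after PTX, and these groups overlapped. In each of the 4 conditions the library of replicate 2 was the lower one, and within a replicate number PTX was below control in processes, at log2 differences of -0.35 and -0.37. The PTX log2 fold change was -0.36 in processes (SE 0.218, adjusted p = 0.466, and 0.0295 with the block) and -0.23 in somata (SE 0.215, adjusted p = 0.706). Processes against somata gave 0.48 in control cultures (SE 0.216, adjusted p = 0.092, and 8.09e-04 with the block) and 0.35 in PTX cultures (adjusted p = 0.197, and 0.00787 with the block), and both turned with library size only, to -1.35 and -1.48.

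Map6 encodes the stable tubule only polypeptide, which protects microtubules against cold. It was measured at 30.8 and 30.3 CPM in somata control and at 30.1 and 24.3 CPM in somata PTX. In processes it was at 44.6 and 28.9 CPM in control and at 40.7 and 24.6 CPM after PTX. The 2 libraries of a process condition lay further apart than the means of the conditions did. No comparison of Map6 passed, with or without the block. The PTX log2 fold change was -0.17 in somata (95% confidence interval -0.66 to 0.33) and -0.18 in processes (95% confidence interval -0.71 to 0.36), and processes against somata gave 0.27 in control cultures (adjusted p = 0.366) and 0.26 in PTX cultures (adjusted p = 0.386), or -1.56 and -1.58 with library size only.

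Dcx encodes doublecortin, which marks immature and migrating neurons. Its level was 136 and 150.2 CPM in somata control and 86.6 and 116 CPM in somata PTX, with no overlap. The process values were 165 and 253 CPM in control and 134 and 199 CPM after PTX, with overlap. Alone among the 10 genes, its level was higher in the library of replicate 2 in 4 of 4 conditions. The summed level of 10 oligodendrocyte lineage markers was also higher in that library in each condition, for example 352 and 543 CPM in somata control and 516 and 658 CPM in processes control, and its part in the Dcx levels was not tested. The PTX log2 fold change was -0.50 in somata (SE 0.226, adjusted p = 0.321, and 9.43e-04 with the block) and -0.33 in processes (SE 0.228, adjusted p = 0.535, and 0.0486 with the block). Processes against somata passed in PTX cultures, at 0.72 (SE 0.228, adjusted p = 0.0224), and was 0.55 in control cultures (SE 0.227, adjusted p = 0.0684, and 1.75e-04 with the block). The call in PTX cultures was lost with upper quartile scaling (0.54, adjusted p = 0.0671). It was also lost with the counts outside mitochondrial genes, where the value stayed positive. Without replicate 1 of somata PTX (0.53) and without replicate 2 of processes PTX (0.41) it was lost too. The sign turned with library size only (-1.09 in PTX and -1.24 in control cultures).

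Stmn1 encodes stathmin, which sequesters tubulin dimers and promotes disassembly. It was measured at 108 and 101 CPM in somata control and at 75.7 and 62.8 CPM in somata PTX, with no overlap. In processes it was at 104 and 84.9 CPM in control and at 86.8 and 75.1 CPM after PTX, and these libraries overlapped. Stmn1 in somata was lower after PTX by a log2 fold change of -0.60 (SE 0.135, 95% confidence interval -0.90 to -0.30, adjusted p = 0.0352, quasi-likelihood test), a level 1.51 times lower. The adjusted p was above 0.05 without any one of the 4 somata libraries, between 0.0656 and 0.232, while the log2 fold change stayed between -0.75 and -0.48. It was 0.00273 in the likelihood ratio test, 0.00591 in DESeq2 and 2.76e-05 with the block. In processes the log2 fold change was -0.22 (SE 0.14, 95% confidence interval -0.53 to 0.09, adjusted p = 0.487). Processes against somata gave -0.15 in control cultures (adjusted p = 0.375), which passed as -0.36 with upper quartile scaling (adjusted p = 0.045) and as -0.62 with the counts outside mitochondrial genes (adjusted p = 0.00241), and 0.22 in PTX cultures (adjusted p = 0.199, and 0.0372 with the block), the latter turning to -1.60 with library size only.

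Stmn2 encodes a neuronal stathmin of growth cones that is attached to membranes. Its level was 186 and 163 CPM in somata control and 154 and 121 CPM in somata PTX. The process values were 228 and 187 CPM in control and 167 and 138 CPM after PTX. Both PTX libraries were below both control libraries in each compartment. The log2 fold change of PTX was -0.35 in somata (SE 0.155, adjusted p = 0.314, and 0.00719 with the block) and -0.45 in processes (SE 0.157, adjusted p = 0.173, and 0.00174 with the block). Between compartments it was 0.25 in control cultures (SE 0.156, adjusted p = 0.208, and 0.0221 with the block) and 0.15 in PTX cultures (adjusted p = 0.444), or -1.56 and -1.68 with library size only.

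**Figure D3:**
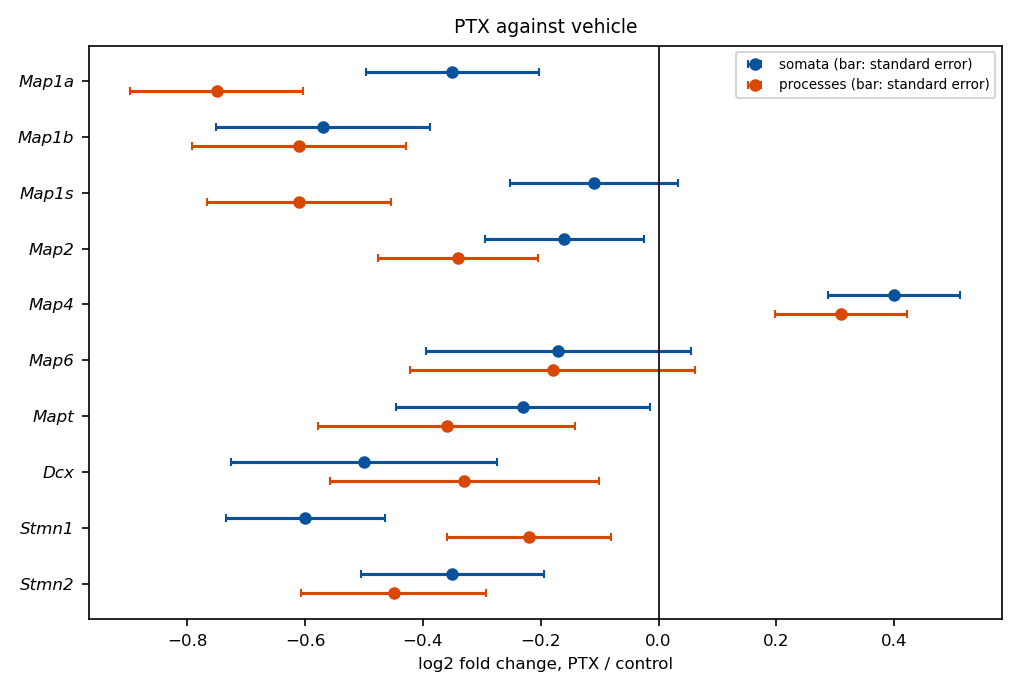
Log2 fold change of PTX against control for the 10 genes in somata (blue) and in processes (orange) from the TMM fit, with bars of 1 standard error (SE). Map4 is on the positive side in both compartments at 0.40 and 0.31, and the other 9 genes are on the negative side, from -0.11 for Map1s in somata to -0.75 for Map1a in processes.

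The direction of the PTX difference did not depend on the replicate number. Computed within each number, PTX was below control for 9 of the 10 genes in both numbers and above it for Map4 in both numbers, in somata and again in processes. The labels do not say whether somata and process libraries of a number came from the same inserts, so the 2 compartments may not be independent in this. Some of the differences were near 0, such as -0.04 for Map6 and -0.08 for Map1s in replicate 1 of somata. In the fit to all 8 libraries, 48.9% of all tested genes were positive after PTX in somata and 48.4% in processes. Those shares are of a different measure, since they come from the joint fit. The share of all genes below control in both numbers is not given here, so the count of 9 has no like share beside it. The sum of the 10 genes took 0.763% and 0.685% of the counts outside mitochondrial genes in somata control and 0.615% and 0.564% in somata PTX. In processes it took 1.60% and 1.46% in control and 1.29% and 1.13% after PTX, so that the PTX libraries were below the control libraries in both compartments on a scale that did not use TMM. Map2 and Map1b held most of the summed counts, for example 23174 and 24657 in replicate 1 of somata control. This sum therefore says little of the other genes, Map4 included. Astrocyte markers summed to 3170 and 4209 CPM in somata PTX and to 11420 and 12680 CPM in processes PTX, against the control values given above. Gfap made up most of the sums in processes PTX, at 7698 and 8799 CPM. In somata PTX it was at 1057 and 1531 CPM, less than the other markers together. Of the 8 astrocyte markers 0 were higher and 1 was lower after PTX in somata, and 0 passed in processes, where Slc1a3 was at 844 and 805 CPM after PTX, above its control libraries. The neuronal sum was 1632 and 1415 CPM in somata PTX and 1195 and 984.5 CPM in processes PTX, with a mean of 1524 against 1503 CPM in somata control and of 1090 against 979 CPM in processes control. Its genes did not move together, since 2 of the 9 were higher and 1 was lower after PTX in somata, 2 were higher and 0 lower in processes, and their median log2 fold change was -0.11 and -0.12. In processes Gad2 was at 90.6 and 71.2 CPM in control and 178 and 129 CPM after PTX, whereas Syt1 was at 183 and 155 CPM in control and 140 and 113 CPM after PTX. Markers of progenitor and dividing cells, 6 genes, summed to 603.6 and 570.9 CPM in processes control and to 781 and 808.5 CPM in processes PTX. In somata their sum was 354.7 and 353.4 CPM in control and 354.6 and 426.9 CPM after PTX. Of these 6 genes, 1 was higher and 0 were lower after PTX in processes, and 0 passed in somata. The part of these marker levels in the PTX differences of the 10 genes was not tested.

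**Figure D4:**
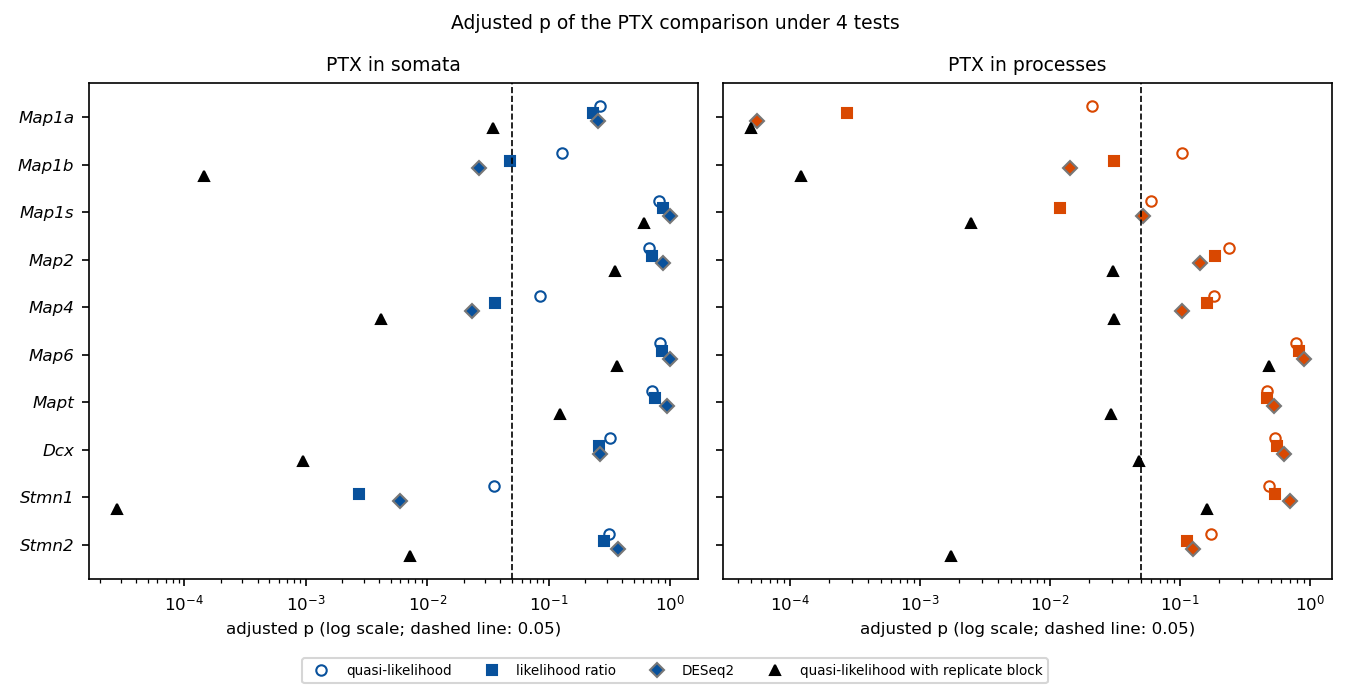
Adjusted p of PTX against control for the 10 genes (log axis, dashed line at 0.05) in somata and in processes under the quasi-likelihood test (open circles), the likelihood ratio test (squares), DESeq2 (diamonds) and the quasi-likelihood test with the replicate block (triangles). Stmn1 in somata and Map1a in processes are left of the line under all 4 tests, and the block puts 6 genes left of it in somata and 8 in processes.

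Whether PTX acted differently in the 2 compartments was tested by the interaction, the PTX log2 fold change in processes minus that in somata. None of the 10 genes passed the quasi-likelihood test, where 0% of all tested genes were called in either direction, and DESeq2 and the likelihood ratio test called 0 of the 10 as well. With the block 0 of the 10 passed, where 0.0769% of all genes were called with a positive and 0.028% with a negative interaction. The interaction of Map1s was -0.50 (95% confidence interval -0.97 to -0.04), and it was the 1 gene of the 10 at an unadjusted p under 0.05, against 4% of all tested genes, so that this count is near that of all genes. The interaction was -0.40 for Map1a (95% confidence interval -0.85 to 0.06) and 0.38 for Stmn1 (95% confidence interval -0.05 to 0.81). These intervals span differences of up to almost 1 on the log2 scale, so that the passing of Stmn1 in somata and of Map1a in processes does not show that either gene responded in 1 compartment only.

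Other genes of the microtubule system were counted by lists of their roles. Of 15 further microtubule-associated proteins and paralogs, 1 was higher after PTX in somata, Dclk1 (0.58, SE 0.136, adjusted p = 0.0414), a doublecortin-like kinase. In processes 0 of these 15 were higher and 2 were lower, Map6d1 (-0.90, adjusted p = 0.0336), a relative of Map6, and Tppp (-0.59, adjusted p = 0.0404), a tubulin polymerisation-promoting protein. The median log2 fold change of this list was -0.09 in somata and -0.52 in processes, where the 10 genes above had -0.29 and -0.35. Of 17 measured genes of microtubule ends and linkers, 1 was lower in somata, Nav1 (-0.54, adjusted p = 0.0182), a neuron navigator, and 0 passed in processes. These PTX calls depended on the scaling. With library size only, the quasi-likelihood test lost Dclk1 (adjusted p = 0.0509), Tppp (0.078) and Nav1 (0.0742) and kept Map6d1 (0.0471). Among 16 tested severing and tubulin-modifying enzymes and among 16 kinases and phosphatase subunits that act on these proteins, 0 passed after PTX in either compartment. Of all tested genes, 2.09% were higher and 1.5% lower in somata, and 1.64% and 2.1% in processes. Counts of 0 in lists of this size are near these shares. With the block, 1 of the 15 further proteins was higher and 3 were lower in somata, 1 was higher and 6 were lower in processes, and 4 of the 17 genes of ends and linkers were lower in each compartment. Also with the block, 1 of the 16 enzymes was higher and 1 lower in somata and 0 passed in processes, while 2 of the 16 kinases and phosphatase subunits were higher and 1 lower in somata, and 2 were higher and 2 lower in processes. Of all genes, 7.21% were higher and 6.79% lower in somata with the block, and 5.1% and 6.09% in processes.

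Between compartments of control cultures, 4 of the 15 further microtubule-associated proteins were higher in processes and 4 lower, where 25.8% of all genes were higher and 21.9% were lower. With the counts outside mitochondrial genes as the scale these numbers were 1 and 9. On that scale 13.5% of all genes were higher, 49.3% were lower and the median of all genes was -0.51. Dclk1 (1.37, SE 0.139, adjusted p = 1.96e-05) was the gene with the smallest adjusted p of this list and kept a positive value of 0.91 on that scale, and turned to -0.43 with library size only. Stmn4, another neuronal stathmin, was lower in processes (-1.13, adjusted p = 7.75e-04) under every scaling tried. Of the 17 genes of ends and linkers 8 were higher and 0 lower, or 2 and 6 on the scale without mitochondrial genes, with Nav3 at 1.47 and Clip2 at 0.84, and with library size only both were negative. The enzymes had 6 higher and 3 lower of 16, or 4 and 8 on that scale. Vash1 (1.58) and Svbp (1.42), a tubulin carboxypeptidase and its binding partner, led them, and both were negative with library size only. Kinases and phosphatase subunits had 7 higher and 0 lower of 16, or 2 and 5 on that scale, and Cdk5r2, an activator of Cdk5, had 1.39 but -0.43 with library size only. Map1a, Map2 and Map4 stayed positive under each of the scalings. This follows from their larger log2 fold changes with TMM, since a change of scaling shifts all genes by nearly the same amount, and it is not separate support.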

How the data were processed

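RNA of 8 libraries, 2 for each combination of compartment (somata, processes) and treatment (control, PTX), was analysed, and groups and replicate numbers came from the sample labels. The authors depleted ribosomal RNA, prepared directional libraries and counted reads on Ensembl genes with featureCounts, and their methods name Subread for the alignment to the rat genome, whereas the submitters' processing notes list STAR, with assembly Rnor_6.0. The deposited values are raw counts summed by gene symbol, so that copies sharing a symbol, overlapping genes and, since the strand setting of the counting is not given in the sources used here, antisense genes are of uncertain origin. Tables of the authors' own PTX comparisons (log2 fold changes, log2 CPM, test statistic, p-values and FDR) were deposited too and were not used.

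A gene was kept when its count exceeded 20 in 2 or more libraries (14309 genes). TMM factors, 1 coefficient per condition over all 8 libraries and quasi-likelihood tests came from edgeR 4.0.16 in R 4.3.3, with the Benjamini-Hochberg adjustment over all tested genes within each comparison and a threshold of 0.05. Each standard error was obtained as the log2 fold change over the root of its F value, and log2 CPM used a prior count of 2. The fit was also run on simulated counts, which were drawn without compartment differences and without a replicate effect. That run therefore says nothing on how the fit handles these. Alternatives were library size, upper quartile and non-mitochondrial scaling, the likelihood ratio test, DESeq2 1.42.0, other filters and thresholds, only the 4 libraries compared, leaving out each library, and the replicate number as a block. Same-numbered libraries deviated together, since the difference of replicate 2 minus replicate 1 had a correlation across genes of 0.54 for the somata conditions and of 0.27 to 0.37 for the other 5 pairs of conditions. What the numbers mark is not given in the labels. The block lowered the coefficient of biological variation from 11.5% to 6.77%.

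The 10 genes and the other lists were chosen with earlier results of these data known. The named genes are all 10, and from each other list those with the smallest adjusted p. Promoters came from RefSeq (GRCr8).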

Additional observations from a re-analysis of the deposited data

How the results depend on the processing

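The PTX counts of genes called depended on the test. Of the 10 genes, 1 passed after PTX in somata, against 3 with the likelihood ratio test (6.79% of all genes), 3 with DESeq2 (3.52%), 4 without a filter on low counts (5.04%), 2 at an adjusted p under 0.1 (6.14%), 6 with the replicate block (14%), and 0 with a log2 fold change above 1 required as well (1.33%). In processes 1 passed, against 3 with the likelihood ratio test (6.63% of all genes), 2 with DESeq2 (4.47%), 4 without a filter (4.98%), 2 at an adjusted p under 0.1 (6.22%), 8 with the block (11.2%), 0 with a log2 fold change above 1 required (1.43%) and 0 with only the 4 libraries compared (2.08%). Without 1 library the counts ranged from 0 to 1 in both. For processes against somata, 4 genes passed in each kind of culture, against 10 in control and 9 in PTX cultures with library size only, where 94.1% and 94.3% of all genes were called, and 8 and 7 with the block, where 57.8% and 59.5% were. The interaction had 0 under every alternative run.

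Scaling turned the sign of several compartment differences. With library size only, the control values were -1.54 for Map1b, -1.27 for Map1s, -1.56 for Map6, -1.35 for Mapt, -1.24 for Dcx and -1.56 for Stmn2. The PTX culture values were -1.60 for Map1b, -1.78 for Map1s, -1.58 for Map6, -1.48 for Mapt, -1.09 for Dcx, -1.60 for Stmn1 and -1.68 for Stmn2. With the counts outside mitochondrial genes, the control values were -0.19 for Map1b, -0.19 for Map6 and -0.21 for Stmn2, and the PTX culture values -0.22 for Map1b, -0.42 for Map1s, -0.20 for Map6, -0.10 for Mapt, -0.23 for Stmn1 and -0.30 for Stmn2. In PTX cultures Map1s was -0.14 and Stmn2 -0.03 with upper quartile scaling, and Map1s was -0.03 with at least 10 reads in every library. The Map6 interaction was 0.02 with upper quartile scaling, 0.00 with DESeq2 and 0.00 with the replicate block.

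Leaving out each library moved some small values across 0. After PTX, Map1s in somata ranged from -0.24 to 0.02, Map6 in processes from -0.58 to 0.17 and Dcx in processes from -0.64 to 0.01. Processes against somata ranged from -0.08 to 0.55 for Map6 in control cultures, and in PTX cultures from -0.10 to 0.15 for Map1s, -0.14 to 0.58 for Map6 and -0.01 to 0.34 for Stmn2. The interaction ranged from -0.24 to 0.20 for Map1b, -0.41 to 0.34 for Map6, -0.45 to 0.19 for Mapt, -0.14 to 0.51 for Dcx and -0.25 to 0.10 for Stmn2. A condition left with 1 library was assumed to vary like the others. With 2 libraries per condition the intervals are wide, and the process libraries carry fewer counts outside mitochondrial genes, and Map1s and Map6 had the fewest reads. The causes of these shifts, other than the scaling itself, were not tested. Beyond the calls named here and in the report, the block changed no call of the 10 genes.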

Other observations

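The level of Map2 followed that of a few other genes closely over the 8 libraries. The tested genes of at least 5 CPM on average with the highest Pearson correlation of log2 CPM to Map2 were Wasf3 (0.999), Ndrg2 (0.998), Dok6 (0.998), AABR07037528.1 (0.998) and Sspn (0.998). For Mapt they were Padi2 (0.974), Usp49 (0.97), Nudcd3 (0.965), Camsap3 (0.963) and Tbc1d24 (0.961), of which Camsap3 binds the minus ends of microtubules. These values are a description over 8 libraries that fall into 2 compartments and share depth and scaling within each.

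Several of the 10 genes differed between the 2 libraries of a condition in the same way in each condition. Replicate 2 was below replicate 1 in 4 of 4 conditions for Map1b, Map2, Map6, Mapt, Stmn1 and Stmn2, and above it in 4 of 4 for Dcx. Across all tested genes this difference was correlated between conditions too, at 0.27 to 0.54. The share of all genes with the same sign in 4 of 4 conditions is not given here, so the pattern is not shown to be particular to these genes. The log2 difference of replicate 2 from replicate 1 in processes was -0.62 in control and -0.72 after PTX for Map6, -0.57 and -0.59 for Mapt, and 0.62 and 0.57 for Dcx. In somata the same differences were -0.02 in control and -0.30 after PTX for Map6, -0.13 and -0.33 for Mapt, and 0.15 and 0.42 for Dcx. What the numbers mark was not tested.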
